A study of Mus musculus with 6 samples.

Results

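The genes described here are 10 effector cytokines of helper T cells: Ifng, Tnf, Lta, Ltb, Il3, Il4, Il10, Il21, Csf2 and Tgfb1. They were chosen by Ensembl ID, and each of the 10 IDs had exactly 1 row among the 22322 genes of the deposited table. Symbols came with the list of IDs, since the table itself gives no gene names. Ribosome profiling, which sequences the mRNA fragments that ribosomes protect, had been carried out on mouse CD4+ T cells in 2 groups of 3 libraries. The activated group had been stimulated with beads bearing CD3 and CD28 antibodies, for a time that the sources used here do not state. The other group is labelled resting. The series is titled as a study of how ribosome density relates to mRNA decay during T cell activation. Both groups came from spleen and lymph nodes of C57BL/6J females aged 6 weeks, were labelled 0 h and untreated, and carry replicate numbers 2, 3 and 4. The labels do not say whether a library is 1 animal or a pool, so each p-value sets the group difference only against the scatter between libraries.

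Helper T cells act on other cells largely through the cytokines they secrete, and activation through the T cell receptor with CD28 is the textbook trigger for making them. Interferon gamma marks type 1 helper cells, interleukin 4 type 2 cells and interleukin 21 follicular helper cells, whereas interleukin 10 and TGF-beta restrain immune responses. TNF, lymphotoxin alpha and lymphotoxin beta are related ligands of the TNF superfamily, and interleukin 3 and GM-CSF (encoded by Csf2) drive the growth of myeloid cells. Naive CD4+ T cells hold little mRNA for most of these genes. The mRNAs of several, Tnf, Ifng and Csf2 among them, are short-lived and carry AU-rich elements.

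Several of the 10 genes are neighbours in the genome (RefSeq positions on GRCm38.p6; the files were made on mm10). Ltb (chr17:35194507-35196305), Tnf (chr17:35199367-35202007) and Lta (chr17:35203165-35205578) lie within 11072 bp of each other. Il3 (chr11:54265085-54267279) and Csf2 (chr11:54247270-54249899) are separated by 15185 bp, and Il4 (chr11:53612460-53618665) lies 628604 bp from Csf2 on the same chromosome. Ifng (chr10:118441046-118445894), Il10 (chr1:131019845-131024970), Il21 (chr3:37222759-37232636) and Tgfb1 (chr7:25687002-25705077) each stand alone. Another annotated gene overlaps the span of Lta, Ltb, Il3, Il21 and Csf2. Whether the counting used strand is unknown from the sources used here, so reads from genes on opposite strands cannot be told apart at those 5.

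The sequences upstream of 4 of the genes are shown because their footprints behaved differently: Tnf changed by a large factor, Csf2 had no count in any resting library, Il4 is the type 2 cytokine, and Ltb had the highest resting counts and did not rise. Each is the 250 bases before the start of transcription (RefSeq, GRCm38.p6), printed on the strand of the gene. Capitals mark GGAAA, the core that NFAT proteins bind, on either strand (TTTCC on the printed strand is a match on the other), and TATAAA, the core of the TATA box.
Tnf, chr17:35202008-35202257, minus strand: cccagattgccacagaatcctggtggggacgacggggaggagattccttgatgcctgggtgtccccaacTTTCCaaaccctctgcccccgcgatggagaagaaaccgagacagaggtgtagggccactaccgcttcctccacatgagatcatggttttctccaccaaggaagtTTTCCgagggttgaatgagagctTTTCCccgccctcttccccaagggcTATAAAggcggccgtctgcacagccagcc
Csf2, chr11:54249900-54250149, minus strand: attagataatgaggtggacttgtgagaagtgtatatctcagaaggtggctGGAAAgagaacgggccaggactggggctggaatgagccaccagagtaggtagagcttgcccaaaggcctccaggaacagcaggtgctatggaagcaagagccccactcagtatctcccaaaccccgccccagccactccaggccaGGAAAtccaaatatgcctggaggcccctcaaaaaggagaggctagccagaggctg
Il4, chr11:53618666-53618915, minus strand: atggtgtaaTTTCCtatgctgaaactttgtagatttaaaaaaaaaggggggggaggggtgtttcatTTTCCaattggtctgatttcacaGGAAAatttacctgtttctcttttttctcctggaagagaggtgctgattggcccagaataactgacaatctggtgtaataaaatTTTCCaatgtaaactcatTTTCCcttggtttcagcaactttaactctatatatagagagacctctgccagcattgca
Ltb, chr17:35194257-35194506, plus strand: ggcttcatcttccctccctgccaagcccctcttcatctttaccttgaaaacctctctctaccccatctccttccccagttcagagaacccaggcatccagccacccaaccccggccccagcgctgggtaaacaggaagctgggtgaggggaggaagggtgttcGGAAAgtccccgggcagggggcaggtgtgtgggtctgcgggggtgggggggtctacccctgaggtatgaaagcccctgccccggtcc

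GGAAA matched 5 times in the Il4 window, 3 times in Tnf, 2 times in Csf2 and 1 time in Ltb. Il4 has a second listed start, whose window held 0 matches; the window at the outer end of the gene is the one shown and counted. A promoter window was listed for 9 of the 10 genes, and for 8 of them it began at the outer end of the annotated gene (not for Lta). Of these 8, 7 held GGAAA, against 55.6% of 32851 windows of the same length, and Tgfb1 did not. At least 4 matches, as in the outer Il4 window, occurred in 1.59% of windows. TATAAA was found in 2 of the 8 (Tnf at -29 and Ifng at -30 relative to the start), against 12.4% of windows, and the AP-1 letters TGANTCA in 0 of the 8, against 6.75%. Matches of different motifs did not overlap in these 8 windows. These matches describe letters and do not show binding.

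Coding-sequence (CDS) counts summed to between 511483 and 1074656 in activated libraries and to between 437200 and 594508 in resting libraries. At this depth 4 of the 10 genes (Tnf, Lta, Ltb and Tgfb1) passed the low-count filter of the main test, in which 6775 genes entered. The other 6 had between 11 and 107 CDS counts over all 6 libraries, and they were tested in a second fit that kept every gene with a count (12873 genes). In the main test 3097 genes changed (45.7%): 1633 rose (24.1%) and 1464 fell (21.6%) in activated cells. Of the 4 cytokine genes that entered it, 3 rose (Tnf, Lta and Tgfb1), and these 3 also stood apart from resting libraries in every activated library, as 28.1% of tested genes did upwards and 26.7% downwards. Lta and Tgfb1 reached the filter's minimum in all 6 libraries, whereas Tnf fell short of it in 1 of 3 resting libraries and entered through the activated ones. With upper quartile factors 1399 rose and 1897 fell, and with library totals alone 1102 rose and 2572 fell. The median log2 change of all genes tested was -0.04, and it was -0.18 with upper quartile factors and -0.38 with library totals, so each direction below is relative to the main scaling unless another is named. CPM are CDS counts divided by the TMM-scaled library size in units of 1e+06 counts. The libraries are bulk samples: more cells that make a cytokine and more footprints per cell cannot be told apart. No mRNA counts were used here, so more mRNA and more ribosomes per mRNA cannot be told apart either.

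Nearly the whole set was higher in activated cells. Over all 10 genes the median log2 change in the fit without the filter was 3.32, or 3.14 with Il3 and Csf2 held at their lower bounds, beside -0.06 over all 12873 genes. In that fit 9 of the 10 genes rose, against 14% of all genes with a count (24.9% changed in either direction), and Ltb did not pass the test (log2 change -0.42, adjusted p = 0.0649). The 12873 genes take in many with fewer counts than any of these 10, which lowers such shares. In a fit of the 9692 genes with at least 10 counts over the 6 libraries, 1846 rose, 9 of the 10 cytokine genes among them. The values of the groups stood apart, activated above resting, for 8 of the 10 genes, against 18.4% of all genes with a count. The 2 others were Ltb and Il3. Il3 and Csf2 entered the fit without the filter through activated libraries alone. Together the 10 genes held 0.202%, 0.188% and 0.168% of CDS counts in activated replicates 2, 3 and 4, and 0.123%, 0.119% and 0.104% in resting replicates 2, 3 and 4 (the 95% Wilson intervals ran from 0.161% to 0.214% over activated and from 0.0966% to 0.134% over resting libraries, counting error only). Ltb alone made up most of the resting share: without it the genes held 0.133 ± 0.005% in activated and 0.0235 ± 0.0006% in resting cells (SD, n = 3 each).

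**Figure D1:**
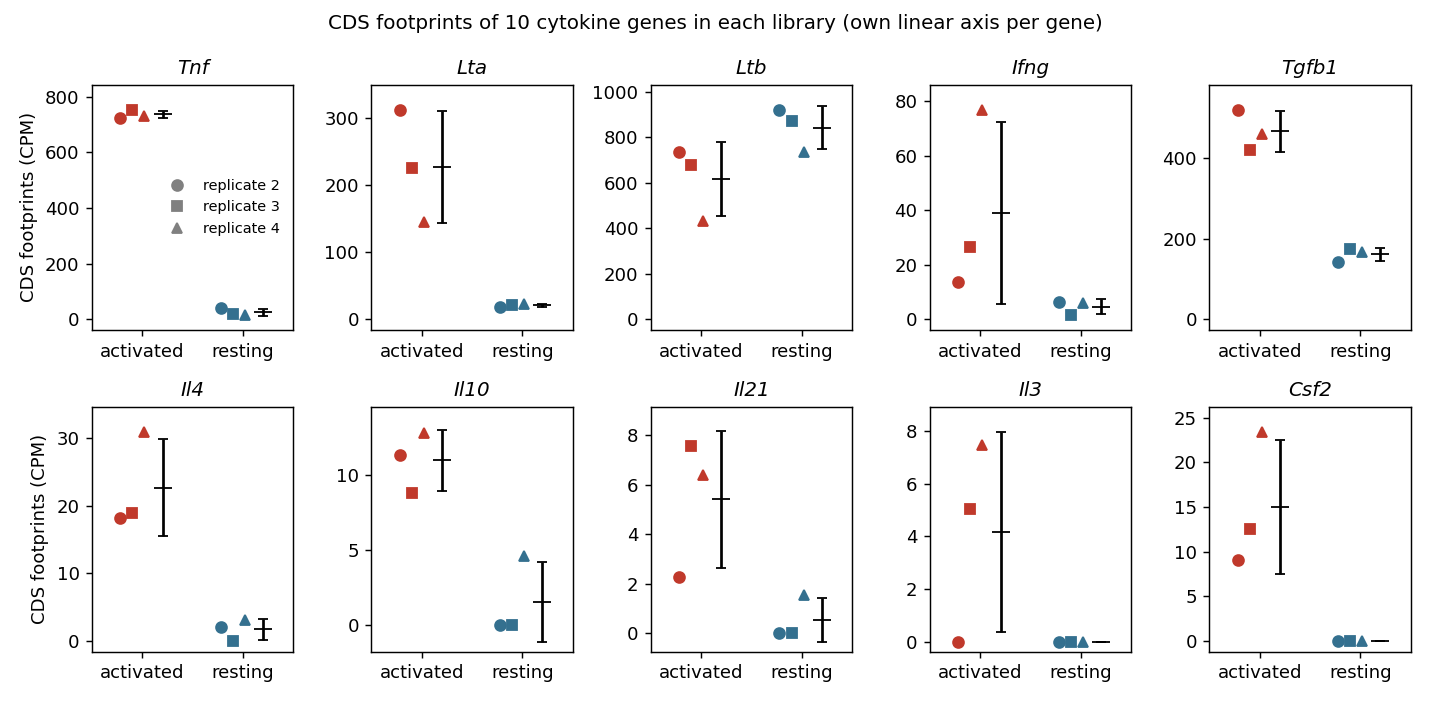
CDS footprints of the 10 cytokine genes in CPM (linear axis, one scale per gene) in 3 activated (red) and 3 resting (blue) libraries, with the replicate number as the symbol and the mean ± SD beside each group. Tnf lies between 725 and 752 CPM in activated and between 15.4 and 40.0 CPM in resting libraries, whereas the groups overlap for Ltb.

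Tnf (ENSMUSG00000024401.13), the inflammatory cytokine that gives its family its name, had the firmest change. It held 725, 752 and 731 CPM in activated replicates 2, 3 and 4, against 40.0, 19.5 and 15.4 CPM in resting replicates 2, 3 and 4. The activated libraries were close together, while resting replicate 2 was above the other resting libraries. Tnf rose by 4.94 on the log2 scale, a 30.6-fold change (SE 0.24, adjusted p = 2.42e-10). This was the 18th highest log2 change of the 6775 genes tested. Leaving out each library in turn gave log2 changes of 4.66 to 5.39, all past the threshold.

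Lta (ENSMUSG00000024402.5) encodes lymphotoxin alpha, which is secreted as a trimer of its own and also joins lymphotoxin beta on the cell surface. It held 311, 225 and 145 CPM in activated replicates 2, 3 and 4, against 18.9, 21.1 and 23.1 CPM in resting replicates 2, 3 and 4. The groups stood well apart, and the activated libraries differed among themselves far more than the resting ones. Lta rose by 3.38 on the log2 scale (10.4-fold, SE 0.30, adjusted p = 1.94e-07), the 68th highest change.

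Ltb (ENSMUSG00000024399.5), the membrane-bound partner of lymphotoxin alpha, which directs the development and upkeep of lymphoid organs, was the exception in the set. It held 736, 678 and 432 CPM in activated replicates 2, 3 and 4, against 919, 873 and 735 CPM in resting replicates 2, 3 and 4. Activated replicate 2 lay just above resting replicate 4, so the groups overlapped. The log2 change was -0.46 (SE 0.18, adjusted p = 0.0503), just short of the threshold. In exon counts, which also take in the untranslated regions, the groups did not overlap. How many of all genes stood apart in exon counts was not counted. Ltb had 2911 exon counts in all, against 2722 in the CDS, 10 in the 5' UTR and 12 in the 3' UTR. The deposited intersection-nonempty CDS columns, a second counting mode, held 2890. In the exon fit Ltb fell, as 21.9% of genes did (593, 558 and 363 against 779, 730 and 608 CPM in activated against resting replicates 2, 3 and 4; log2 change -0.49, SE 0.18, adjusted p = 0.0359). In the exon fit without the filter it missed the threshold (log2 change -0.44, adjusted p = 0.0561). In CDS counts it passed the threshold with upper quartile factors, library totals, limma voom, the replicate number as a block (log2 change -0.48, adjusted p = 0.00369), and without activated replicate 2 or resting replicate 4. It did not without activated replicate 4 (log2 change -0.22, adjusted p = 0.295). No setting turned its direction.

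Because these 3 neighbouring genes can be set against each other inside a library, their balance does not depend on scaling. Per 100 Ltb counts there were 98.5, 111 and 169 Tnf counts in activated replicates 2, 3 and 4, against 4.35, 2.23 and 2.09 in resting replicates 2, 3 and 4. Lta had 42.3, 33.2 and 33.5 counts per 100 Ltb counts in the activated libraries, against 2.06, 2.42 and 3.14 in the resting libraries. Both ratios were thus higher in each activated library than in any resting library, by 45.0-fold for Tnf and 14.4-fold for Lta in the geometric mean. Tnf also gained on Lta, with 233, 334 and 505 Tnf counts per 100 Lta counts in activated replicates 2, 3 and 4, against 211, 92.3 and 66.7 in resting replicates 2, 3 and 4. The groups came close at replicate 2 of each. The resting ratios rest on few counts: 19, 12 and 10 for Tnf and 9, 13 and 15 for Lta in replicates 2, 3 and 4. These ratios were not tested. They compare libraries and not the levels of the genes, since coding lengths were not used here.

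**Figure D2:**
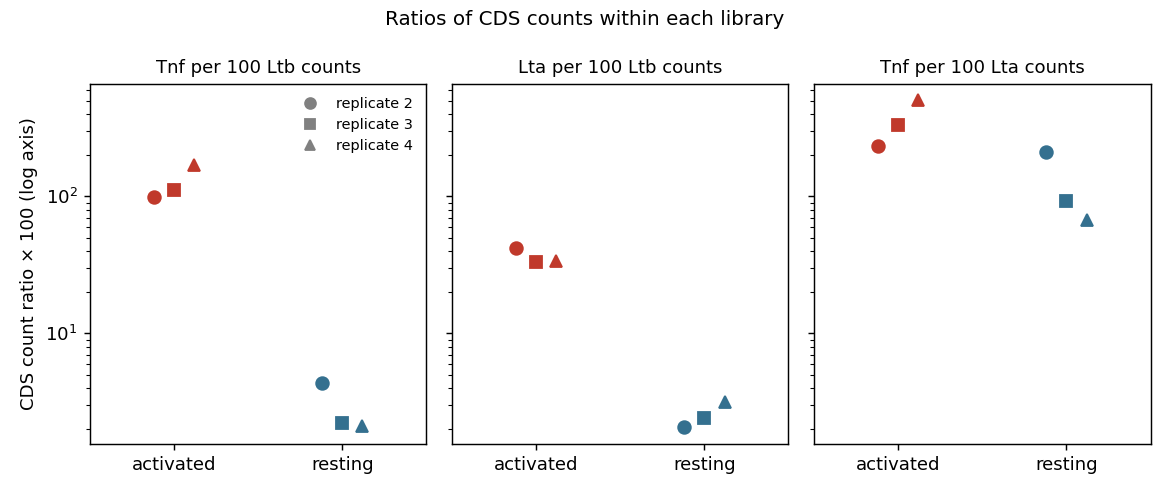
Ratios of CDS counts between Tnf, Lta and Ltb within each library, times 100, on a log axis, for 3 activated (red) and 3 resting (blue) libraries, with the replicate number as the symbol. Tnf and Lta per Ltb are far higher in activated libraries, and Tnf per Lta ranges from 233 to 505 in activated and from 66.7 to 211 in resting libraries.

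Tgfb1 (ENSMUSG00000002603.14) encodes TGF-beta 1, which is made as a latent precursor and, once released, restrains T cell proliferation. It held 518, 419 and 460 CPM in activated replicates 2, 3 and 4, against 143, 174 and 166 CPM in resting replicates 2, 3 and 4. The groups were well apart, with a spread in each that was small beside the difference. Tgfb1 rose by 1.52 on the log2 scale (2.87-fold, SE 0.16, adjusted p = 9.97e-07), the 549th highest change. Its footprints were also frequent in resting cells, with 68, 107 and 108 CDS counts.

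Among the 6 genes below the filter, the type 1 and type 2 cytokines had the most counts. Ifng (ENSMUSG00000055170.3), the interferon that activates macrophages, had 6, 21 and 72 CDS counts in activated replicates 2, 3 and 4, against 3, 1 and 4 in resting replicates 2, 3 and 4. In CPM this was 13.6, 26.4 and 76.6 in activated against 6.31, 1.62 and 6.15 in resting libraries. The groups did not overlap, but activated replicate 4 held most of the activated counts. Ifng rose in the fit without the filter (log2 change 3.23, SE 0.55, adjusted p = 1.55e-05). Without activated replicate 4 the log2 change was 2.22 (adjusted p = 0.00255).

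Il4 (ENSMUSG00000000869.11), which drives antibody class switching in B cells, had 8, 15 and 29 CDS counts in activated replicates 2, 3 and 4, against 1, 0 and 2 in resting replicates 2, 3 and 4. Its activated level was 22.6 ± 7.1 CPM and its resting level 1.73 ± 1.57 CPM (SD, n = 3 each). The ratio of the pooled counts was 13.9 (95% exact interval 4.50 to 69.5, counting error only). Il4 rose (log2 change 3.68, SE 0.61, adjusted p = 8.23e-06). In exon counts Il4 passed the filter, but through the activated libraries alone, since 0 of 3 resting libraries reached the minimum, so its entry already required a difference (log2 change 4.02, SE 0.58, adjusted p = 2.39e-05, with 24.2% of genes rising in that fit). Without resting replicate 4 the CDS log2 change was 4.47.

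Csf2 (ENSMUSG00000018916.5), the GM-CSF gene, had 4, 10 and 22 CDS counts in activated replicates 2, 3 and 4, against 0 in every resting library. Its mean over activated libraries was 15.0 ± 7.5 CPM (SD, n = 3). Pooled over the libraries of each group, which gives deeper libraries more weight, the 36 activated counts came to 16.6 CPM, and the limit that 0 resting counts allow (3 counts) was 1.72 CPM. With the pooled activated counts taken as exact, Csf2 was at least 9.61-fold higher, and at least 6.58-fold higher without activated replicate 4. These bounds leave out counting error in the activated counts and scatter between libraries. The edgeR fit without the filter gave an adjusted p of 1.78e-05, which belongs to its fitted change and not to the bound. Csf2 entered that fit through activated libraries alone. Its neighbour Il3 (ENSMUSG00000018914.5), a growth factor for mast cells and basophils, had 0, 4 and 7 CDS counts in activated replicates 2, 3 and 4, against 0 in every resting library. In pooled counts it came to 5.06 CPM in activated cells, although activated replicate 2 had no CDS count. Bounded in the same way, Il3 was at least 2.94-fold higher, and at least 1.88-fold higher without activated replicate 4. The edgeR fit without the filter, which Il3 also entered through activated libraries alone, gave an adjusted p of 0.0231. The 0 of Il3 in activated replicate 2 depends on the counting mode, since the intersection-nonempty CDS columns held 2, 4 and 9 in activated replicates 2, 3 and 4. In exon counts activated replicate 2 also had 2, and the pooled bound for Il3 was at least 4.02-fold. In the exon fit without the filter, 9 of the 10 genes rose, against 14.5% of genes.

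Il10 (ENSMUSG00000016529.5), the anti-inflammatory cytokine, had 5, 7 and 12 CDS counts in activated replicates 2, 3 and 4, against 0, 0 and 3 in resting replicates 2, 3 and 4. It rose in the fit without the filter (log2 change 2.59, SE 0.79, adjusted p = 0.0118). In exon counts the resting libraries held 2, 2 and 4, and the log2 change was 1.83 (SE 0.51, adjusted p = 0.00723). Its CDS counts depend on the counting mode: the deposited intersection-nonempty columns hold 42 in all, against 27 in the columns used here. Il21 (ENSMUSG00000027718.7), which acts on B cells in germinal centres, had 1, 6 and 6 CDS counts in activated replicates 2, 3 and 4, against 0, 0 and 1 in resting replicates 2, 3 and 4. The fit gave a log2 change of 3.04 (SE 1.09, adjusted p = 0.0361), and the ratio of the pooled counts was 10.4 with a 95% exact interval of 1.56 to 443.

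The calls of Il3, Il10 and Il21 rest on few counts. Il3 and Il21 lost their call with the replicate number as a block (adjusted p = 0.0618 and 0.0750). Il3 also lost it without any one library other than activated replicate 2 (adjusted p = 0.0771 to 0.144), and Il21 without activated replicate 3 or 4 or resting replicate 2 or 3 (adjusted p = 0.0926 to 0.136). With library totals alone as the scaling, Il21 had an adjusted p of 0.0631. Il10 lost its call without activated replicate 4, resting replicate 2 or resting replicate 3 (adjusted p = 0.0565, 0.0882 and 0.0809). Without resting replicate 4 the resting group held no count of Il10 or Il21, so their fitted changes there (5.89 and 5.02) are no bound. DESeq2 gave no adjusted p for these 3 genes. Ifng, Il4 and Csf2 kept theirs in each of these fits.

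**Figure D3:**
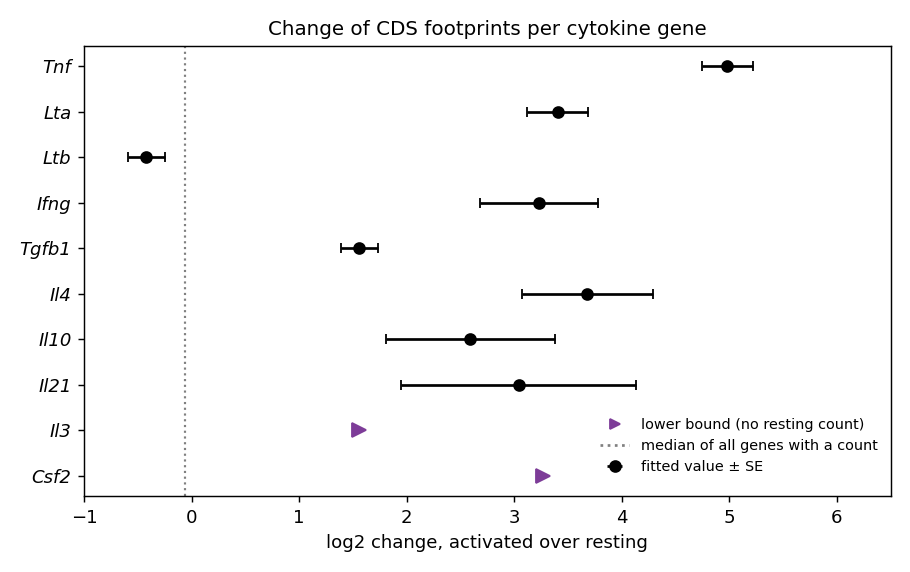
Log2 change of CDS footprints, activated over resting, in the fit that kept all 12873 genes with a count. Points are fitted values ± SE, and the dotted line is the median of all genes (-0.06). Triangles are lower bounds for the 2 genes with no resting count, with their activated counts taken as exact. Tnf lies farthest right among the fitted values at 4.98, and Ltb, at -0.42, is the only one to the left of the dotted line.

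Replicates of the activated group did not move together across the set. Activated replicate 4 had the highest CPM of the 3 for Ifng, Il4, Il3, Il10 and Csf2, and the lowest for Lta and Ltb. Activated replicate 2 had the highest CPM for Lta, Ltb and Tgfb1 and the lowest for Ifng, Il4, Il3, Il21 and Csf2. Tnf differed little between them. Replicate 4 was also the most deeply sequenced activated library, and replicate 2 the least. What this pattern reflects was not tested. Over the 6 libraries, log2 CPM of Lta was most like that of Tgfb1 among the 4 genes that passed the filter (Pearson r = 0.98), and that of Tnf most like that of Lta (r = 0.96). The step between the groups makes up most of this likeness.

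Leader (5' UTR) counts were far higher for Tgfb1 and Tnf than for the other 8 genes. The Tgfb1 mRNA is known for a long, GC-rich leader. Its leader had 304, 465 and 572 counts in activated replicates 2, 3 and 4, against 117, 157 and 188 in resting replicates 2, 3 and 4. This was more than its CDS held in each of the 6 libraries. Per 100 CDS counts there were 133, 140 and 132 leader counts in activated replicates 2, 3 and 4, against 172, 147 and 174 in resting replicates 2, 3 and 4. More leader than CDS counts occurred in 658 of 6282 genes with at least 5 counts in each region (10.5%), and the median gene had 23.6 leader counts per 100 CDS counts. These ratios are not per length.

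The leader ratio of Tgfb1 was lower in each activated library than in any resting library. The margin was narrow, with 140 in activated replicate 3 and 147 in resting replicate 3. How many genes stood apart in this ratio was not counted. In 1 model over both regions, the log2 change of leader over CDS was -0.57 (SE 0.25, edgeR adjusted p = 0.510), so it did not pass the test. With 1 scaling for both regions it was -0.28, beside a median of 0.32 over the genes tested. Tgfb1 leader counts by themselves rose by 0.96 on the log2 scale (SE 0.21, adjusted p = 0.00216), beside 1.52 in the CDS. In that test of leader counts, 22.2% of 2200 genes rose. For Tnf, the leader had 196, 332 and 355 counts in activated replicates 2, 3 and 4, against 4, 4 and 8 in resting replicates 2, 3 and 4. Tnf entered the fit of leader counts through the activated libraries alone, with 0 of 3 resting libraries at the minimum, and its log2 change there was 5.18 (SE 0.30, adjusted p = 1.65e-08). For Tnf, leader over CDS had a log2 change of 0.23 (SE 0.49, adjusted p = 0.934).

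The other genes had few leader counts to compare. Ifng had 34 in activated and 2 in resting libraries. Pooled over activated libraries, this was 34.3 leader counts per 100 CDS counts, against 55.0 for Tnf. By replicate, the Ifng ratio ran from 16.7 to 36.1 in activated libraries. Relative to the CDS, Ifng was thus nearer to Tnf than its leader counts alone show. Ltb had 10 leader counts in all beside 2722 in the CDS, and Lta 6 beside 489. Il4 had 5 in all, Il10 had 1, and Il3, Il21 and Csf2 had 0. Of the 6 cytokine genes that entered the test of leader over CDS, 0 passed it, against 0.0796% of the 6282 genes tested (5 genes, and 557 at an unadjusted p under 0.05 in edgeR). For Lta and Il4, with no resting leader count (SE 2.44 and 2.86), the test could hardly have called a change. Ltb and Ifng also had too few leader counts for a missing call to mean much.

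**Figure D4:**
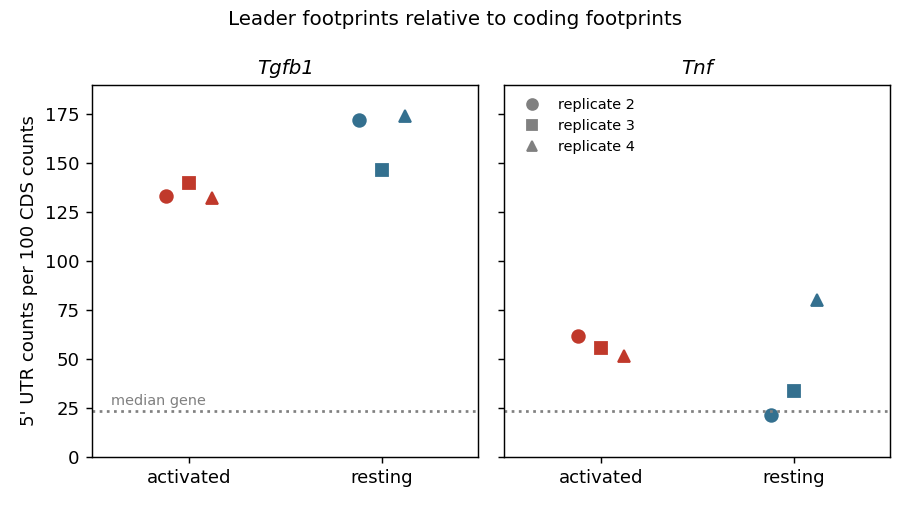
Leader (5' UTR) counts per 100 CDS counts of Tgfb1 and Tnf in 3 activated (red) and 3 resting (blue) libraries, with the replicate number as the symbol. The dotted line is the median over 6282 genes (23.6). Tgfb1 lies above 100 in every library, and the resting values of Tnf, which rest on 4 to 8 leader counts, span those of activated cells.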

How the data were processed

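The authors deposited 1 table of raw counts, with 36 count columns for 6 ribosome profiling libraries. Going by the file headers, the columns of a library count CDS (in 2 modes), the 5' UTR, the 3' UTR, exons and introns. The submitters' processing notes list TopHat2 2.0.13, Bowtie 1.1.1.0, HTSeq and the mm10 build, and the sources used here do not state trimming, annotation release or strand. Of all records of a library, 65.8% to 79.6% were not uniquely aligned and 11.8% to 14.5% fell in no feature. These name no gene and stayed out of library sizes and tests.

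The main test was edgeR's quasi-likelihood F test (version 4.0.16, R 4.3.3, two-sided) on deposited CDS counts after filterByExpr and TMM, with non-legacy glmQLFit. Every adjusted p is Benjamini-Hochberg over the whole fit, and the threshold was 0.05. SE is the size of the log2 change over the square root of F. Genes below the filter were taken from the same fit over every gene with a count. Leader over CDS counts was tested in 1 edgeR model with a term per library, for genes with at least 5 counts in each region. DESeq2 1.42.0 and limma 3.58.1 served as alternatives. Only the main CDS fit was tried on simulated counts, with changes placed in genes of higher count. The fit without the filter and the leader model were not tried in this way. All 10 genes are named, whatever their values. Lists of receptors, regulators, other secreted factors and cell type markers could not be matched, since the reference gene table pairs 0 Ensembl IDs with symbols, so the labelled cell type was not checked by markers. A planned permutation test of the summed share was not run. The members and lists were chosen with earlier results of these data known.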

Additional observations from a re-analysis of the deposited data

How the results depend on the processing

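In the main test 3 cytokine genes were called higher and 0 lower (Ltb missed the threshold). The number called higher was 6 with DESeq2, 9 without the low-count filter and 9 with at least 10 counts over the 6 libraries. DESeq2 was run on every gene with a count and gave an adjusted p for 8380 genes, so its counts of genes differ from the main test in gene set as well as method. Ltb was called lower, making 1, with upper quartile factors, library totals alone, limma voom, the replicate block and exon counts, and 0 to 1 genes were called lower when each library was left out. The number of genes changed, 3097, ranged from 2192 (adjusted p under 0.01) to 3674 (library totals alone), with 2654 to 3055 when each library was left out and 3455 with the replicate block. Of all genes, 1464 fell in the main test, 2572 with library totals alone and 827 with DESeq2 (1391 rose). Without the filter, 9 cytokine genes were called higher, and 6 to 9 when each library was left out, 7 with the replicate block, 8 with library totals alone and 6 at an adjusted p under 0.01. Tnf, Lta and Tgfb1 kept their direction and their call in all 18 alternatives run for each. The difference in the summed share of the 10 genes was 0.0707 percentage points in CDS counts and 0.113 in exon counts. Exon counts also include untranslated regions, such as the leaders of Tnf and Tgfb1. The causes of this and the other changes were not tested. The older quasi-likelihood fit was chosen as an alternative after seeing the data and gave 3082 changed genes and the same 3 and 9 counts of cytokine genes. Same-numbered libraries of the groups deviated from their group means with correlations of 0.13, 0.07 and 0.23 for replicates 2, 3 and 4. Differently numbered libraries gave lower values, from -0.159 to 0.0075. Deviations from a group mean cancel within the group, so higher same-number values by themselves push the others down. The labels do not state a pairing and it was not tested, so whether the numbers pair the libraries is not settled. Depth limits Il3, Il10 and Il21, with 11, 27 and 14 CDS counts in all, where neither the size of a change nor its call is firm.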
